A study of Homo sapiens with 4 samples.

Results

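The tripartite motif (TRIM) family was taken as every gene in the deposited count table whose symbol is TRIM followed by a number, with at most 1 further letter. The rule found 72 genes among 57820, listed as 449 transcripts, and does not take family members under other symbols, such as *PML*, *MID1* and *MID2*. Of these members, 49 had at least 1 count, 45 passed the filter on low counts and were tested, and 23 were at 0 in all 4 libraries. SK-N-SH cells, an established human neuroblastoma line, were transduced with a lentivirus carrying the lncRNA *RP5-998N21.4* under the EF1a promoter (*RP5-998N21.4* OE, genotype label *RP5-998N21.4* overexpressed, 2 libraries) or with the same kind of lentivirus without an insert (vector control, genotype label wild type, 2 libraries). Both groups therefore carry a lentivirus, and both are the same line. The comparison addresses what this lncRNA does to gene expression when it is raised in a neuron-like line.

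TRIM proteins are named for an N-terminal RING domain, 1 or more B-boxes and a coiled coil, though some members lack the RING domain, and most act as E3 ubiquitin ligases, which attach ubiquitin to chosen proteins. They differ in the domain at the C-terminal end, which picks the target. Many members are induced by interferon and restrict viruses or tune the sensing of viral RNA and DNA, while others bind microtubules, chromatin or muscle fibres, and several are enriched in neurons.

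The interferon-stimulated response element (ISRE), bound by interferon-activated transcription factors, is the sequence through which many family members answer interferon. Its core was searched on both strands as GAAA, any 2 bases and GAAA again, in RefSeq promoters of GRCh38.p14 reaching from 250 bases before to 50 bases after each gene start. Of the 72 members, 56 matched a promoter entry. The core stood in 10 of these 56 (17.9%) and in 1255 of all 35116 promoters (3.57%). It stood in 6 of 9 interferon-inducible members with an entry (*TRIM5*, *TRIM14*, *TRIM21*, *TRIM26*, *TRIM34* and *TRIM69*) and in 4 of the other 47 (*TRIM2*, *TRIM16*, *TRIM44* and *TRIM64C*). A match is a description of the sequence and not a bound site. The 120 bases before the gene start, 5′ to 3′ on the strand of the gene, are shown for 4 interferon-inducible members with a match, marked in capitals, and for 3 members without one on which the results turn. In order they lie at chr11:5685075-5685194 (minus strand), chr9:98119223-98119342 (minus), chr11:5624881-5625000 (plus), chr15:44736408-44736527 (plus), chr17:56914050-56914169 (minus), chr1:231161938-231162057 (plus) and chr11:4608232-4608351 (minus).
TRIM5: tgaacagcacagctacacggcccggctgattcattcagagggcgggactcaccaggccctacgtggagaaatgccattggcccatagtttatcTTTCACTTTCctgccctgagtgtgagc
TRIM14: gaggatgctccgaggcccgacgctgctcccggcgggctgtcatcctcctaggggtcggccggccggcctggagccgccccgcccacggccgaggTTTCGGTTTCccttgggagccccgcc
TRIM34: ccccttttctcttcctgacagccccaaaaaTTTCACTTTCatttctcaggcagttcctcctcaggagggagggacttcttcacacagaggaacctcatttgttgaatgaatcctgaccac
TRIM69: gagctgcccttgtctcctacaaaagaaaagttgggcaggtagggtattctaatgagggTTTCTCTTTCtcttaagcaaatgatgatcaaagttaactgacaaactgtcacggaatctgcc
TRIM25: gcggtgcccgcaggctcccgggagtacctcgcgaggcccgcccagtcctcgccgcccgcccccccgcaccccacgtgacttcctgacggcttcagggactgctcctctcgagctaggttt
TRIM67: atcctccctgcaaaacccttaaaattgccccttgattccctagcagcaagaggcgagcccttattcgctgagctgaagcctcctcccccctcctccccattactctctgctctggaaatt
TRIM68: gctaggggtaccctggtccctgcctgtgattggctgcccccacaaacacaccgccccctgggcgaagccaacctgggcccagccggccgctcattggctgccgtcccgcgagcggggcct

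The match lay in the reverse orientation in the 4 marked promoters, with its first base 27 bases before the gene start in *TRIM5*, 26 in *TRIM14*, 90 in *TRIM34* and 62 in *TRIM69*. *TRIM21* carried 2 overlapping matches after its start, at bases 18 to 33, which read GAAACTGAAAGTGAAA. No match in a window says only that these letters are not in it.

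Library totals ran from 23785164 to 28307591 counts, and levels are given as CPM, the counts scaled to an equal normalized library total. The overexpressed lncRNA was counted 32 and 33 times without the insert and 2407 and 2808 times in OE. Of 8 markers of sympathetic neuroblastoma, 7 had counts and all 7 were higher in both OE libraries (summed CPM 540 and 610 in the control, 909 and 869 in OE), while *TH*, the enzyme of catecholamine synthesis, was at 0 throughout. Of 8 markers of other cell types, 5 were at 0 and the highest count was 30, for *EPCAM* (summed CPM 1.42 and 2.04 in the control, 0.717 and 0.968 in OE). The part of the neuroblastoma markers in the results on TRIM members was not tested. In bulk RNA, fewer cells of a type and less RNA per cell cannot be told apart.

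The family as a whole did not move in 1 direction. Summed over all members, the level was 2226 and 1702 CPM in the control and 1824 and 1897 CPM in OE, so the OE libraries lay between the controls. Of the 45 tested members, 27 (60.0%) had a fold change above 0, as had 50.7% of all tested genes, and 18 lay below 0, and their median log2 fold change was 0.09 beside 0.01 over all 20528 tested genes.

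By the quasi-likelihood test of edgeR, with p-values adjusted after Benjamini and Hochberg, 0 members passed the thresholds of the study (adjusted p under 0.01 and absolute log2 fold change above 0.5), where 0.0% of all tested genes did, and 0 passed an adjusted p under 0.05, where 0.594% of all tested genes did. At an unadjusted edgeR p under 0.05, 7 members were higher in OE (15.6%, background 10.1%) and 4 were lower (8.89%, background 10.7%), 11 in all (24.4%, background 20.8%). With DESeq2 at the same thresholds, 2 members were higher, *TRIM67* and *TRIM66* (background 4.35%), and 2 were lower, *TRIM5* and *TRIM68* (background 4.42%), together 8.89% of the members beside 8.77% of all genes. In 19 members both OE libraries lay above both controls (42.2%, background 27.8%), and in 10 they lay below (22.2%, background 27.6%), 29 in all (64.4%, background 55.4%). The share of members past the study's thresholds in DESeq2 was thus near that of all genes, and no call was made with edgeR, so the differences below are given as values.

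**Figure D1:**
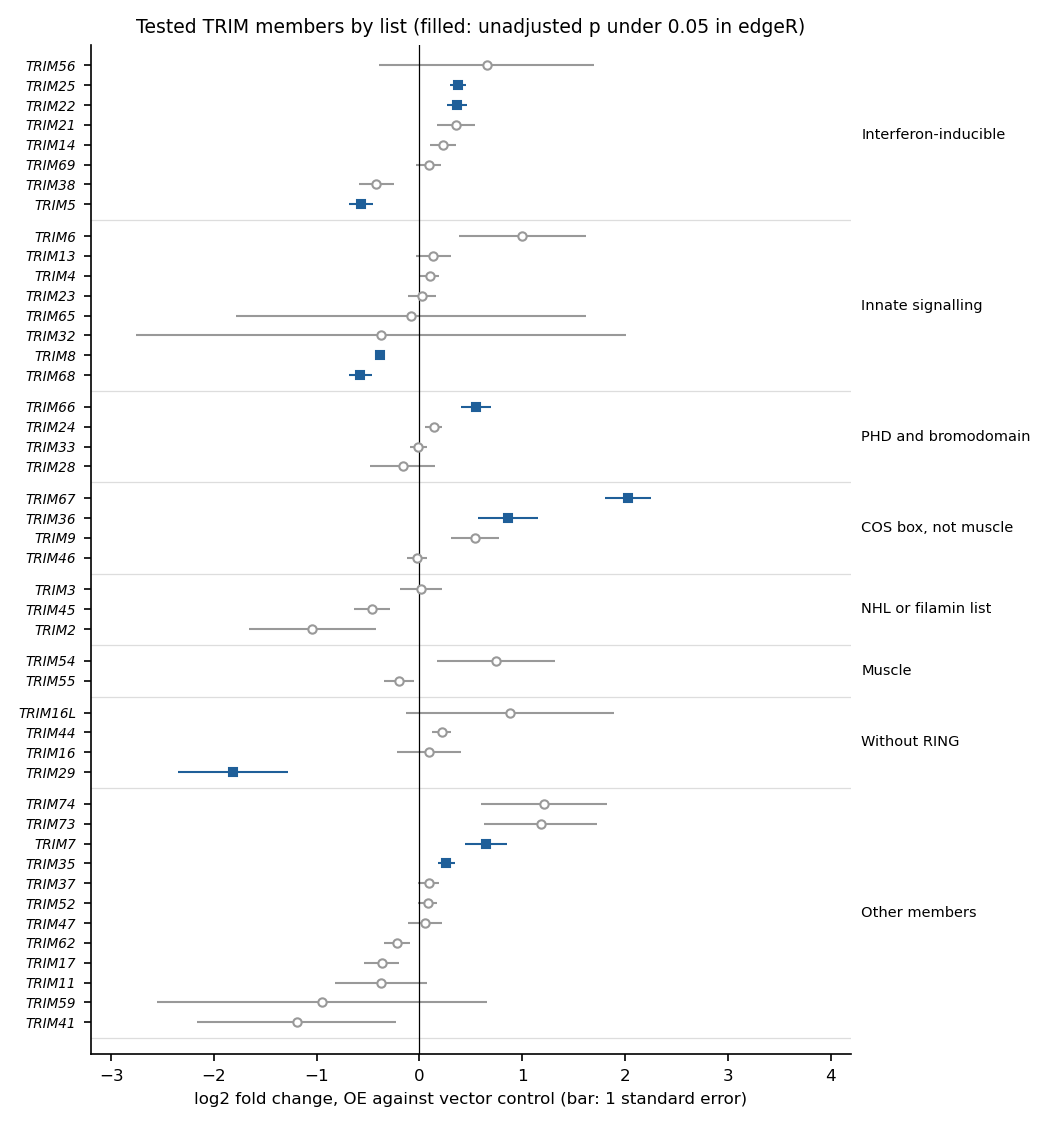
Log2 fold change (x axis) of the 45 tested TRIM members, OE against vector control, with 1 standard error from edgeR, grouped by the list each was placed in (right). Filled squares are the 11 members at an unadjusted p under 0.05, of which *TRIM67* lies farthest from 0, at 2.03, and open circles are the other 34.

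Of 10 interferon-inducible members, 8 were tested. At an unadjusted edgeR p under 0.05, 2 were higher in OE (background 10.1%) and 1 lower (background 10.7%). Both OE libraries were above both controls in 4 (*TRIM25*, *TRIM22*, *TRIM21*, *TRIM14*, background 27.8%) and below in 2 (*TRIM5*, *TRIM38*, background 27.6%), and the groups overlapped in 2 (*TRIM69*, *TRIM56*). Their median log2 fold change was 0.29.

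*TRIM25* (ENSG00000121060, hg19 chr17:54913748-54991441), the ligase known for acting on the RNA sensor RIG-I, had 4824 and 4426 counts in the control and 6564 and 7263 in OE. In CPM this was 198 ± 13.3 in the control and 256 ± 7.42 in OE (SD, n = 2). Both OE libraries lay above both controls, with a log2 fold change of 0.37 (SE 0.0789) and an edgeR adjusted p of 0.129 (unadjusted edgeR p 0.0106). Nearly all of its counts, at least 99.78% in each library, were on 1 transcript. Its exons share 80 bases with *DGKE* on the other strand, which was also higher in OE (1041 and 1104 counts in the control, 1445 and 1536 in OE), and the use of strand in counting is not stated.

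*TRIM22* (ENSG00000132274, chr11:5710840-5758319), an antiviral member, had 477 and 488 counts in the control and 683 and 751 in OE. Both OE libraries were above both controls, at 26.6 ± 0.888 CPM against 20.6 ± 0.201 (SD, n = 2). The log2 fold change was 0.37 (SE 0.100) and the edgeR adjusted p 0.179. Leaving out any 1 library kept the sign (0.33 to 0.40), with unadjusted edgeR p from 0.0660 to 0.0978. *TRIM5* (ENSG00000132256), which restricts retroviral capsids, is the neighbour of *TRIM22* on chromosome 11, transcribed from the opposite strand, and its values lay the other way. It had 576 and 595 counts in the control and 449 and 461 in OE, or 25.0 ± 0.414 and 16.9 ± 1.38 CPM (SD, n = 2). Both OE libraries were below both controls, with a log2 fold change of -0.57 (SE 0.118) and an edgeR adjusted p of 0.128. The transcripts of this pair were 78.1% identical over 483 aligned bases.

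*TRIM21*, a receptor for antibodies in the cytosol, had 345 and 461 counts in the control and 530 and 667 in OE (log2 fold change 0.36, SE 0.185). *TRIM14*, an adaptor in signalling by the mitochondrial protein MAVS, had 289 and 326 counts in the control and 384 and 446 in OE (0.22, SE 0.126). Its exons share 422 bases with *NANS* on the other strand (521 and 533 counts, then 633 and 780). *TRIM38*, an inhibitor of inflammatory signalling, had 273 and 224 counts in the control and 209 and 219 in OE (-0.42, SE 0.173). In all of these the groups did not overlap, and edgeR's unadjusted p was 0.129, 0.154 and 0.0773. Leaving out vector control replicate 2 gave *TRIM21* a log2 fold change of 0.57 and an unadjusted edgeR p of 0.0378, while leaving out vector control replicate 1 gave 0.17 and 0.339. With 1 library left out, *TRIM14* ran from 0.14 (without vector control replicate 1) to 0.30 and *TRIM38* from -0.56 to -0.26 (without vector control replicate 1).

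*TRIM69*, another interferon-induced antiviral member, had 1022 and 1218 counts in the control and 1269 and 1482 in OE, and its groups overlapped in CPM (log2 fold change 0.09, SE 0.122). *TRIM56*, an antiviral ligase, had 158 and 17 counts in the control and 154 and 165 in OE. Vector control replicate 2 alone stood apart there, and the log2 fold change was 0.66 (SE 1.05). Of the tested members with a match to the ISRE core in this list, *TRIM14* and *TRIM21* were higher in both OE libraries, *TRIM5* was lower in both, and *TRIM69* overlapped. Of those without a match in their window, *TRIM25* was higher in both, *TRIM38* was lower in both, and *TRIM56* overlapped. *TRIM22* had no promoter entry, so it stands on neither side.

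**Figure D2:**
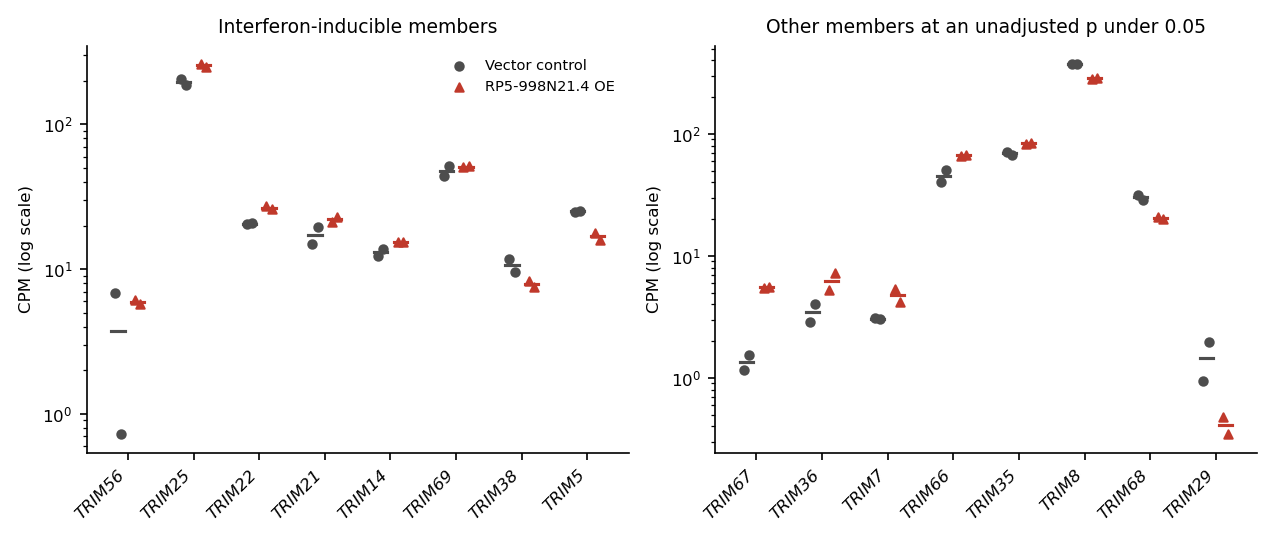
CPM on a log axis in each library of the 8 tested interferon-inducible members (left) and of the 8 other members at an unadjusted edgeR p under 0.05 (right). Grey circles are vector control, red triangles OE, and bars are group means. The OE points of *TRIM25*, *TRIM22* and *TRIM67* lie above both controls, those of *TRIM5*, *TRIM8* and *TRIM68* below.

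Among 11 members listed for other roles in innate signalling, 8 were tested. At an unadjusted edgeR p under 0.05, 0 were higher (background 10.1%) and 2 were lower (background 10.7%), and the median log2 fold change was -0.03. *TRIM8* (ENSG00000171206, chr10:104402260-104418075), a regulator of NF-κB and JAK-STAT signalling, had the highest mean level per length among the members with known transcript lengths, ahead of *TRIM28* in 2 of 4 libraries. It had 8632 and 8775 counts in the control and 7128 and 8304 in OE. Scaled to library size, this was 372 ± 1.94 CPM in the control and 286 ± 2.13 CPM in OE (SD, n = 2), with both OE libraries below both controls. The log2 fold change was -0.38 (SE 0.0514) and the edgeR adjusted p was 0.0797, from 1.30-fold lower levels. The lncRNA *TRIM8-DT*, which shares 1349 exonic bases with it on the opposite strand, had 1988 and 1982 counts in the control and 1793 and 1609 in OE, and without strand the reads of such a pair cannot be told apart.

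*TRIM68* (ENSG00000167333, chr11:4619902-4629461), a close relative of *TRIM21* that acts on the androgen receptor, had 740 and 675 counts in the control and 518 and 577 in OE. Its level was 30.3 ± 2.16 CPM in the control and 20.3 ± 0.492 in OE (SD, n = 2), again without overlap. The log2 fold change was -0.58 (SE 0.111), with an edgeR adjusted p of 0.116. The other 6 tested members of this list (*TRIM4*, *TRIM6*, *TRIM13*, *TRIM23*, *TRIM32*, *TRIM65*) had no unadjusted edgeR p under 0.05.

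A list of 4 microtubule-binding members with a COS box held *TRIM9*, *TRIM36*, *TRIM46* and *TRIM67*, several of them neuronal ligases. It left out the muscle members, of which several also carry a COS box, *TRIM42*, which was at 0, and the COS-box family members *MID1* and *MID2*, which the rule did not take. All 4 were tested, 2 were higher at an unadjusted edgeR p under 0.05 (background 10.1%), 0 were lower (background 10.7%), and the median log2 fold change was 0.70. *MID1* had 677 and 629 counts in the control and 550 and 712 in OE, lower in CPM in both OE libraries (-0.26, SE 0.121). *MID2* had 209 and 128, then 175 and 145, with overlap (-0.27, SE 0.343). With 1 library left out, *MID2* ran from -0.59 to 0.13, so its sign was not kept. With *MID1* and *MID2* added, the median over 6 genes was 0.26. *TRIM67* (ENSG00000119283, chr1:231297804-231357311), a neuronal member that binds the netrin receptor DCC, had 27 and 36 counts in the control and 136 and 162 in OE. Its level was 1.35 ± 0.263 CPM in the control and 5.51 ± 0.128 CPM in OE (SD, n = 2), a 4.08-fold difference without overlap. The log2 fold change was 2.03 (SE 0.226), from 1.84 to 2.24 when 1 library was left out. Its edgeR adjusted p of 0.0693 was the lowest of the family, and its DESeq2 adjusted p was 1.3e-10. All its counts were on 1 transcript, ENST00000444294, in all 4 libraries.

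*TRIM36*, which associates with microtubules and the cell cycle, had 67 and 94 counts in the control and 131 and 211 in OE (log2 fold change 0.86, SE 0.290, edgeR adjusted p 0.228). *TRIM9*, the brain-enriched relative of *TRIM67*, had 65 and 69 counts in the control and 121 and 102 in OE, without overlap (0.54, SE 0.236, edgeR adjusted p 0.308), and its log2 fold change ran from 0.30 to 0.75 with 1 library left out. *TRIM46*, which bundles microtubules at the start of the axon, had 939 and 998 counts in the control and 990 and 1212 in OE, with overlap (-0.03, SE 0.0944). For *TRIM36* the unadjusted edgeR p was 0.0525 without vector control replicate 2, 0.152 without vector control replicate 1 and 0.166 without OE replicate 2. The neuroblastoma markers were also higher in both OE libraries, and their part in these values was not tested.

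The 4 chromatin members carry a PHD finger and a bromodomain, and their median log2 fold change was 0.06. *TRIM66* had 942 and 1186 counts in the control and 1637 and 1958 in OE, without overlap (log2 fold change 0.55, SE 0.145, edgeR adjusted p 0.171). Its leading transcript was ENST00000402157 in vector control replicate 1 (938 of its counts) and ENST00000299550 in each of the remaining libraries. On the transcript with the highest mean count alone, the log2 fold change was 1.38 with an unadjusted edgeR p of 0.607, and the unadjusted edgeR p was 0.0626 without OE replicate 1 and 0.0772 without OE replicate 2. *TRIM24*, a nuclear receptor cofactor, had 1116 and 1125 counts in the control and 1318 and 1529 in OE (0.14, SE 0.0839). *TRIM33*, a ligase of the SMAD pathway, had 1786 and 1785 counts in the control and 1899 and 2198 in OE (-0.01, SE 0.0784), which in CPM was 76.3 ± 0.519 and 75.8 ± 0.219 (SD, n = 2). *TRIM28*, the corepressor also called KAP1, had 3859 and 2167 counts in the control and 2884 and 3339 in OE, with overlap (-0.16, SE 0.314). Without vector control replicate 2, *TRIM28* had a log2 fold change of -0.53 and an unadjusted edgeR p of 0.00905, and without vector control replicate 1 it had 0.32 and 0.0448, so its direction turned with the control library left out.

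A list of 4 members without a RING domain (*TRIM16*, *TRIM16L*, *TRIM29* and *TRIM44*, all tested) did not take in *TRIM14* and *TRIM66*, which also lack it and were listed by other roles. *TRIM29*, a gene of epithelia, had 22 and 46 counts in the control and 12 and 10 in OE (log2 fold change -1.81, SE 0.533, edgeR adjusted p 0.196). With 1 library left out, its log2 fold change ran from -2.24 to -1.20 (without vector control replicate 2). The groups did not overlap, at counts of at most 46, and the unadjusted edgeR p was 0.116 without vector control replicate 2 and 0.0792 and 0.125 without OE replicates 1 and 2. The epithelial marker *EPCAM* had 15 and 30 counts in the control and 12 and 8 in OE, and its part in this value was not tested. *TRIM44* had 3310 and 3064 counts in the control and 4143 and 4392 in OE, without overlap (0.22, SE 0.0907).

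Of the members outside these lists, *TRIM7*, which binds glycogenin, had 72 and 71 counts in the control and 135 and 122 in OE (log2 fold change 0.65, SE 0.206, edgeR adjusted p 0.212). Its leading transcript was not the same in all libraries, and on the transcript with the highest mean count the log2 fold change was 1.54 (unadjusted edgeR p 0.00586). *TRIM35*, which binds pyruvate kinase, had 1662 and 1590 counts in the control and 2088 and 2414 in OE (0.26, SE 0.0831, edgeR adjusted p 0.212). In both, OE was above the control in both libraries. Leaving out 1 library gave an unadjusted edgeR p from 0.0403 to 0.150 for *TRIM7*, under 0.05 only without OE replicate 2, and from 0.0667 to 0.117 for *TRIM35*. *TRIM73* (17 and 17 counts, then 59 and 28) and *TRIM74* (8 and 19, then 44 and 27) are near copies, 99.7% identical over 977 aligned bases with 3 mismatches, and how their reads were shared is uncertain. Their sum was 1.07 and 1.53 CPM in the control and 4.10 and 1.90 CPM in OE.

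A list of 4 members with NHL repeats or a filamin domain had a median log2 fold change of -0.46 over 3 tested (*TRIM2*, *TRIM3*, *TRIM45*), with 0 at an unadjusted edgeR p under 0.05. *TRIM32*, which also carries NHL repeats, was listed under innate signalling (-0.37, SE 2.38). Of the 4 muscle members, *TRIM54* and *TRIM55* were tested, and *TRIM63* and *TRIM72* were at 0. Over the 34 tested members with an unadjusted edgeR p of 0.05 or more, log2 fold changes ran from -1.20 to 1.21.

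Of the 11 members at an unadjusted edgeR p under 0.05, 5 (*TRIM67*, *TRIM8*, *TRIM68*, *TRIM5* and *TRIM25*) stayed under 0.05 in all 12 alternatives tried, and the other 6 did not in 3 to 6 of them. The alternatives reuse the same libraries. This count was not made over all tested genes, so it cannot say whether the members were more stable than other genes.

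Compared per length, *TRIM8* had the highest mean, with 108 CPM per kilobase, followed by *TRIM28* (103), *TRIM25* (40.1), *TRIM65* (23.3) and *TRIM2* (19.3), among members with at least 80% of counts on transcripts of known length. *TRIM8* was at 122 and 123 CPM per kilobase in the control and 93.3 and 94.3 in OE. *TRIM28* was at 97.8 and 133 in the control and 99.5 and 82.5 in OE, so the order of this pair was not the same in all libraries. By this measure *TRIM25* lay below both in each library, at 33.0 to 46.5 CPM per kilobase. In vector control replicate 2 the 3364-base transcript of *TRIM28* held 27 counts, and transcripts of 665 and 861 bases held 936 and 862. That long transcript held 3082 counts in vector control replicate 1, and 1661 and 2398 in OE. Counts on short transcripts weigh more per length, so the place of *TRIM28* beside *TRIM8* and *TRIM25* is uncertain. *TRIM65* ran from 8.74 to 38.8 and *TRIM2* from 11.3 to 29.8, so their order was not the same in all libraries, and *TRIM65* lay above *TRIM25* in vector control replicate 1. *TRIM35*, next in the order with a mean of 18.3, lay above *TRIM2* in vector control replicate 2 and OE replicate 1. *TRIM8* and *TRIM25* together took 26.0 and 33.0% of the family's counts in the control and 29.9 and 28.4% in OE.

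Replicates of several members were far apart. Among 39 members with a mean of at least 50 counts, 8 (20.5%) differed by more than 2-fold in CPM between replicates of a group, beside 12% of 15820 genes at that level. They were *TRIM32*, *TRIM65*, *TRIM59*, *TRIM56*, *TRIM16L*, *TRIM41*, *TRIM2* and *TRIM11*. Their largest replicate ratio had a median of 8.63, against 1.15 for the other 31 members.

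**Figure D3:**
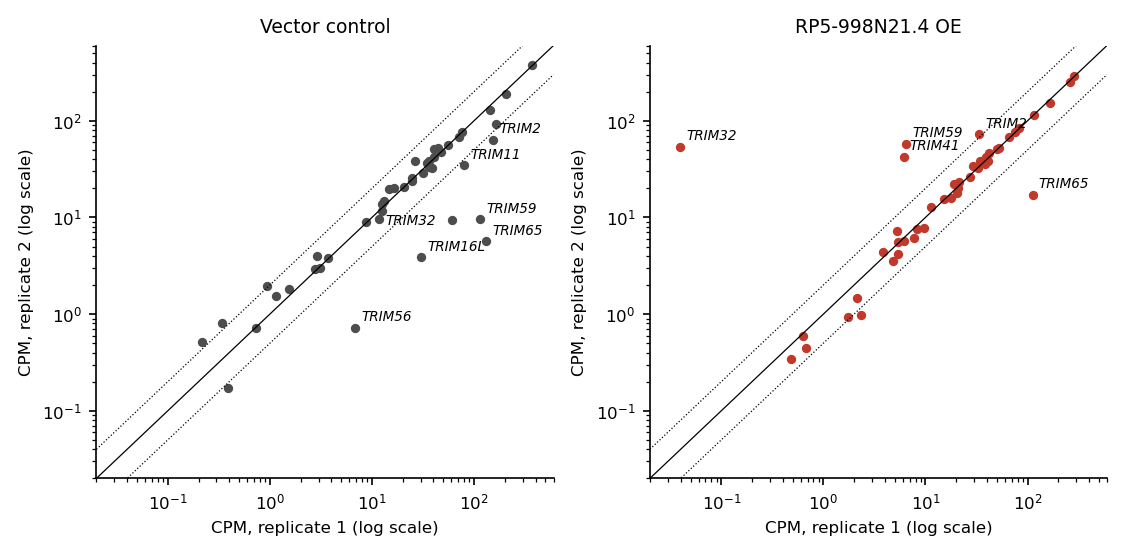
CPM of the 45 tested members in replicate 1 (x) against replicate 2 (y), both on log axes, for vector control (left) and OE (right). The solid line marks equality and the dotted lines a 2-fold difference, and members with a mean of at least 50 counts outside them are named. *TRIM32* lies farthest from the line, in OE.

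In 6 of these 8 members the transcript that held most counts was not the same in all libraries. *TRIM32*, a ligase mutated in a limb-girdle muscular dystrophy, had 1417 and 219 counts in the control and 1 and 1563 in OE. Of these, ENST00000450136 held 1417, 0, 1 and 1563, and ENST00000411410 held all 219 of the second vector control. *TRIM65*, which acts on the RNA sensor MDA5, had 3054 and 133 counts in the control and 2811 and 498 in OE. *TRIM59* had 2684 and 224 in the control and 162 and 1680 in OE, *TRIM16L* 710 and 91 in the control and 734 and 984 in OE, and *TRIM41* 1286 and 1329 in the control and 153 and 1234 in OE. Apart from *TRIM41*, where both OE libraries lay below both controls at very unlike levels, the groups overlapped in CPM. Without OE replicate 2, *TRIM32* had a log2 fold change of -9.60 and an unadjusted edgeR p of 0.0334, and without vector control replicate 1 *TRIM56* had 3.02 and 0.00223.

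*TRIM2*, a neuronal ligase of neurofilament light chain, had 3607 and 1498 counts in the control and 848 and 2091 in OE. Its longer transcript ENST00000338700 held 3405 counts in the first vector control and 0 elsewhere, while ENST00000437508 held 0 there and 1445, 681 and 1953 in the others. *TRIM11* had 1864 and 812 counts in the control and 1048 and 1350 in OE, led by a different transcript in vector control replicate 1, in OE replicate 2 and in the remaining pair of libraries. Of the 8 members with unlike replicates, 2 kept the same leading transcript in all 4 libraries, against 27 of the other 31. *TRIM59* was 1 of those 2, and the gene RP11-432B6.3, which shares 1095 exonic bases with it on the same strand, had 0 and 644 counts in the control and 516 and 640 in OE. Their sum was still unlike between replicates, at 115 and 36.9 CPM in the control and 27.0 and 80.2 CPM in OE. Whether these differences lie in the RNA or in how reads were assigned to transcripts was not tested.

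**Figure D4:**
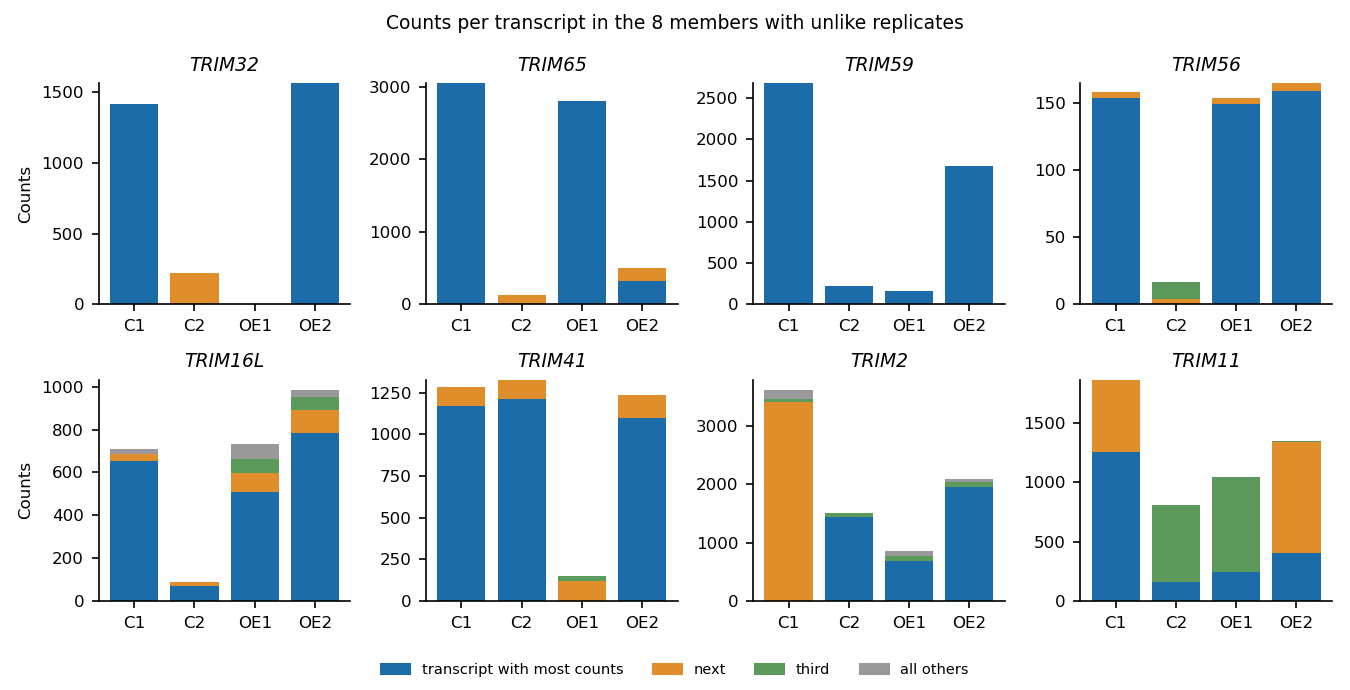
Counts (y axis) per library (C1 and C2 vector control, OE1 and OE2 overexpression) for the 8 members with unlike replicates, stacked by transcript. Blue is the transcript with the most counts over all libraries, orange and green the next ones, grey all others, and in *TRIM2* 1 transcript held most counts in C1 and another in C2, OE1 and OE2.

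*TRIM34* and the readthrough gene *TRIM6-TRIM34*, which the rule did not take, share exons. *TRIM34* had 65 and 1 counts in the control and 1 and 1 in OE and was not tested, while *TRIM6-TRIM34* had 0 and 59 in the control and 79 and 69 in OE. Their sums were 65 and 60 in the control and 80 and 70 in OE, or 2.79 and 2.55 CPM against 3.19 and 2.42 CPM, which overlapped.

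The other members with counts that were not tested were *TRIM58*, *TRIM61* and *TRIM71*. Of the 23 members at 0 throughout, 7 lie on chromosome 6 (*TRIM10*, *TRIM15*, *TRIM26*, *TRIM27*, *TRIM31*, *TRIM39* and *TRIM40*), within hg19 chr6:28870779-30311506. Of 33 protein-coding genes of the annotation in that window, 1 had counts (3.03%), against 683 of 955 on the rest of the chromosome (71.5%). These 7 members, including the listed interferon-inducible *TRIM26* and the innate signalling members *TRIM27*, *TRIM31* and *TRIM40*, are therefore only listed at 0. *TRIM38*, the eighth member on chromosome 6, lies outside the window and had counts. The 16 other members at 0 were *TRIM42*, *TRIM43*, *TRIM43B*, *TRIM48*, *TRIM49*, *TRIM49B*, *TRIM49C*, *TRIM50*, *TRIM51*, *TRIM60*, *TRIM63*, *TRIM64*, *TRIM64B*, *TRIM64C*, *TRIM72* and *TRIM77*. Several of these are near copies of each other, such as *TRIM49* and *TRIM49C*, which were 99.6% identical over 2163 aligned bases. A 0 allows up to 3 counts in a library, for counting error only.

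A list of 26 further genes held enzymes, sensors, adaptors and chromatin proteins that work with TRIM proteins, together with *PML*, *MID1* and *MID2*, which are family members under other symbols. All 26 were tested. At an unadjusted edgeR p under 0.05, 3 were higher (11.5%, background 10.1%) and 3 lower (11.5%, background 10.7%), and 19 of 26 (73.1%) had a fold change below 0, beside 49.3% of all tested genes (median log2 fold change -0.19). Without *PML*, *MID1* and *MID2*, 16 of 23 (69.6%) were below 0, with a median of -0.13. *SQSTM1*, the autophagy receptor p62, had 23615 and 25086 counts in the control and 36821 and 43876 in OE (log2 fold change 0.52, SE 0.0472, edgeR adjusted p 0.0615). *UBE2D2*, a ubiquitin-conjugating enzyme, had 1541 and 1756 counts in the control and 2376 and 2770 in OE (0.43, SE 0.100). *IFIH1*, which encodes the sensor MDA5, had 313 and 287 counts in the control and 455 and 538 in OE (0.52, SE 0.121). All of these were above both controls in each OE library.

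Lower in CPM in both OE libraries were *IKBKE*, a kinase of interferon signalling, and *MAVS*, the mitochondrial adaptor of RNA sensing. *IKBKE* had 830 and 930 counts in the control and 727 and 734 in OE (log2 fold change -0.47, SE 0.126). *MAVS* had 2491 and 2358 counts in the control and 2121 and 2566 in OE (-0.26, SE 0.0850). In CPM *MAVS* was at 107 and 100 in the control and 84.5 and 88.7 in OE. *CBX1*, which encodes the heterochromatin protein HP1β that *TRIM28* binds, had 5782 and 6108 counts in the control and 389 and 214 in OE. Its log2 fold change was -4.47 (SE 0.449), a 22.2-fold lower level with an edgeR adjusted p of 0.0636. Leaving out 1 library gave -5.10 to -4.03. With DESeq2, 3 of these 26 genes passed the study's thresholds (background 8.77%), *SQSTM1* (adjusted p 2.8e-27), *CBX1* (6.1e-17) and *IFIH1* (0.00203), and with edgeR 0 did (background 0.0%). The unadjusted p of *MAVS* (from edgeR or the alternative's own tool) was 0.05 or more in 7 of 12 alternatives, all 4 fits without 1 library among them (0.0550 to 0.129), that of *IKBKE* in 3 (0.0930 without vector control replicate 2, 0.0840 without OE replicate 2 and 0.0614 with the replicate block), and that of *IFIH1* in 3 (0.0598 without vector control replicate 2, 0.0535 and 0.0675 without OE replicates 1 and 2). *UBE2D2* lost it without OE replicate 2 (0.0521), and *SQSTM1* on the transcript with the highest mean count (0.0532), where its log2 fold change was 1.14.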

How the data were processed

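The 4 RNA-seq libraries of SK-N-SH cells were grouped by the treatment label (the titles of the controls read WT). The authors trimmed reads with Trimmomatic, mapped them to hg19 with Bowtie2 (version 2.0.4 per the submitters' processing notes, which also list StringTie 2.1.6, Picard 2.21.6 and DESeq2 without a role) and deposited raw read counts for each transcript, which are whole numbers. Which tool made the counts, the annotation release and the use of strand are not given in the sources used here. Counts were summed per gene. No source says that replicates came from separate cultures, so p-values measure the spread between these libraries, which may be technical.

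Genes kept by filterByExpr (20528) were scaled by TMM (factors 0.976 to 1.02) and tested with edgeR 4.0.16 in R 4.3.3, without covariates. An exact permutation test of 2 against 2 libraries cannot go below a two-sided p of 0.333. The study's tool, DESeq2 1.42.0, was an alternative, with limma-voom 3.58.1, RLE and upper-quartile scaling, minimums of 1 count in total and of a mean of 10, the transcript with the highest mean count, a replicate block and leaving out each library. The edgeR step was also run on simulated counts with an equal dispersion for all genes. Those counts lacked the unlike replicates seen here, so that run cannot say how the test handles them. Gene positions come from GENCODE v44 lifted to GRCh37 (hg19) and promoter sequences from RefSeq.

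Members, lists and the naming rule were chosen with earlier results of these data known. Named were all tested interferon-inducible members, members at an unadjusted p under 0.05 or past the study's thresholds in DESeq2, the 5 highest per length, the 3 with the largest replicate ratio, and partners at an unadjusted p under 0.05. Other members given with values, and EPCAM, DGKE, NANS, TRIM8-DT, CBX3, UBE2L6 and the readthrough gene, were chosen after their values were seen. The values of 1 further gene are not reported here.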

Additional observations from a re-analysis of the deposited data

How the results depend on the processing

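The median log2 fold change of the tested members was 0.13 with upper-quartile scaling (which moved that of all genes to 0.05) and 0.061 with a minimum of 1 count in total. DESeq2 placed 4 members past the study's thresholds, against 0 with edgeR and limma-voom. The replicate numbers did not pair the libraries (correlation of replicate differences -0.02 over 20528 genes), and with a replicate block 4 members were higher at an unadjusted p under 0.05 instead of 7. Leaving out 1 library, with the lone library of a group assumed to vary like the other group, gave 3 to 6 members higher and 4 to 5 lower at that p, 0 past the thresholds, a median from 0.080 to 0.145, 20 to 26 members above both controls and 11 to 19 below. Where a control was left out, above and below refer to the 1 control that remained. With 3 libraries the groups overlap less readily than with 4, so these counts cannot be compared with the 19 and 10 of the main fit. No share of all tested genes was set beside the counts without 1 library, so they say nothing particular to the members. The sign reversed for *TRIM2* (0.62) and *TRIM28* (0.16) on the transcript with the highest mean count. It also reversed for *TRIM65* with limma-voom (0.63) and the replicate block (0.68). Among the genes covered by the naming rule, leaving out 1 library reversed it for *TRIM28* (-0.53 to 0.32), *TRIM32* (-9.60 to 1.53), *TRIM56* (-0.20 to 3.02), *TRIM59* (-3.27 to 1.75), *TRIM65* (-1.99 to 3.51) and *TRIM69* (-0.029 to 0.21). The cause was not tested. Of 324 values of named genes under 12 alternatives, 265 kept sign and side of 0.05, 42 lost it, 5 gained it and 12 reversed. Precision is limited by 2 libraries a group and, for genes at few counts, by depth.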
